A study of Mus musculus with 8 samples.

Results

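Regulatory T cells (Tregs) of visceral adipose tissue (VAT) were compared between male and female mice by ATAC-seq, an assay that uses a transposase to cut and tag accessible DNA. The comparison covered every distinct region on chromosomes 1 to 19 of the count table, 45402 of 46624 distinct regions in all, and 4 of the 8 libraries of the series. The question, per the series title, is how adipose tissue imprints Tregs in a sex-specific way. The groups compared were 2 libraries of male VAT Tregs and 2 of female VAT Tregs. All were sorted as RFP+ cells from the VAT of C57BL/6 mice carrying the Foxp3RFP reporter, in which a red fluorescent protein marks cells that express Foxp3. The other groups, used for reference levels and for the estimate of the spread, were 2 libraries of RFP+ Tregs from male spleen and 2 of RFP- CD4+ T cells from male VAT, of the same strain and reporter. Cells of 3 mice were pooled for each library, and no treatment or age is given in the labels. Whether the 2 libraries of a group came from separate pools of mice is not stated, so p-values measure only the spread between libraries, which may be technical. Pooled cells also mean that a change in which cells were sorted and a change within each cell cannot be told apart.

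Tregs restrain other immune cells and depend on the transcription factor Foxp3. Visceral fat holds a specialised population of them that carries the IL-33 receptor (the product of Il1rl1), the nuclear receptor Pparg and the receptor Klrg1, and that is known to limit inflammation of the tissue. A short open region away from a gene is often an enhancer, a stretch of DNA where transcription factors bind, while the broad open region over a transcription start is open in most cell types. An open region is assigned to a gene by the authors' table and is not a measure of that gene's expression.

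Counts in the regions used were 15189119 and 9303488 in the male VAT Treg libraries (replicates 1 and 2) and 9949076 and 8350024 in the female ones, and 1 count was worth 0.0634 to 0.117 CPM (counts per 1000000 counts of the library) across these 4. The Y-linked gene Uty had 15.3 and 15.0 CPM in male VAT Tregs, 11.2 to 19.04 CPM in the 4 other male libraries and 0 counts in the female ones, as the labels have it. Foxp3, which lies on chromosome X and marks the sort, was open in all 4 libraries, at 85.0 and 53.5 CPM summed over 6 regions in males and 112 and 110 CPM in females. Of its 6 regions 3 were called lower in males. The share of all chromosome X regions called lower is not given here, so these 3 calls cannot be read as particular to Foxp3. Foxp3 was also open in spleen Tregs (55.2 and 65.6 CPM) and in the Foxp3-negative CD4 cells (38.3 and 40.8 CPM). Male replicate 1 stood apart: regions under 1000 bp took 5.46% of its autosomal counts, against 4.12% in male replicate 2 and 4.07% and 4.22% in the female libraries. For this reason list counts and called regions below are also given without single libraries. CPM values are scaled by trimmed-mean-of-M (TMM) factors. Values are in the order replicate 1 and replicate 2, with the male libraries before the female ones where 2 pairs stand against each other. The log2 fold changes are male minus female with an approximate standard error, n is 2 libraries per group throughout, and every adjusted p is from edgeR's quasi-likelihood test with Benjamini-Hochberg adjustment unless another tool is named.

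With all libraries, the regions called between the sexes were mostly short, distal and higher in males, but this split turned without male replicate 1, as given below. Among regions under 1000 bp that lay 10 to 50 kb from a start, the median log2 difference of male replicate 1 over replicate 2 was 0.32. The median log2 fold change between the sexes there was 0.16. Of 44691 autosomal regions tested, 924 were called higher in male VAT Tregs (2.07%) and 335 lower (0.75%) at an adjusted p under 0.05, which is 1259 in either direction (2.82%). Regions under 1000 bp held 762 of the higher calls (4.85% of 15706 tested) and 32 of the lower ones (0.204%). Among the 28985 regions of 1000 bp or more the order was the other way, with 162 higher (0.559%) and 303 lower (1.05%). The higher regions had a median width of 289 bp and the lower ones 3613 bp.

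Male VAT Tregs stood above every other group at most of the higher regions. Over the 924 regions the median level was 6.63 CPM in male VAT Tregs, 1.96 CPM in female VAT Tregs, 1.93 CPM in male spleen Tregs and 2.08 CPM in male VAT CD4 cells. Male VAT Tregs had the highest mean of the 4 groups at 886 of them, against 11760 of all 44691 tested regions. By these medians female VAT Tregs lay near spleen Tregs and Foxp3-negative cells. At the 335 lower regions the medians were 11.2 CPM in male VAT Tregs, 19.3 in female VAT Tregs, 17.3 in spleen Tregs and 14.8 in CD4 cells. Male VAT Tregs were the lowest of the 4 groups at 314 of them, against 12139 of all tested regions. Both sets were chosen for the difference between the sexes, so that male VAT Tregs as the extreme group follows in part from the choice. Both male libraries lay above both female libraries at 918 of the 924 and below them at all 335. Without a test, 40.6% of all tested regions had groups that did not overlap, 9454 with males above and 8693 with males below. Where groups are said below not to overlap at a called region, this nearly follows from the call and is not further support.

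The calls depended on single libraries. Male replicate 1 exceeded male replicate 2 at 838 of the 924 higher regions (90.7%), against 53.1% of all tested regions. Without male replicate 1, 237 regions were called higher and 966 lower, and 218 of the 924 were still among them. Without male replicate 2 the counts were 1288 and 168. With female replicate 1 left out, 267 were higher and 61 lower, and with female replicate 2 left out, 304 and 17. DESeq2 called 346 higher and 47 lower with all libraries. Each of these fits tested 44691 regions. List counts without 1 library, given below, are to be read beside the counts over all regions of the same fit. Without male replicate 1 lower calls outnumbered higher ones over all regions, so a turn to lower calls on a list there was not particular to it.

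**Figure D1:**
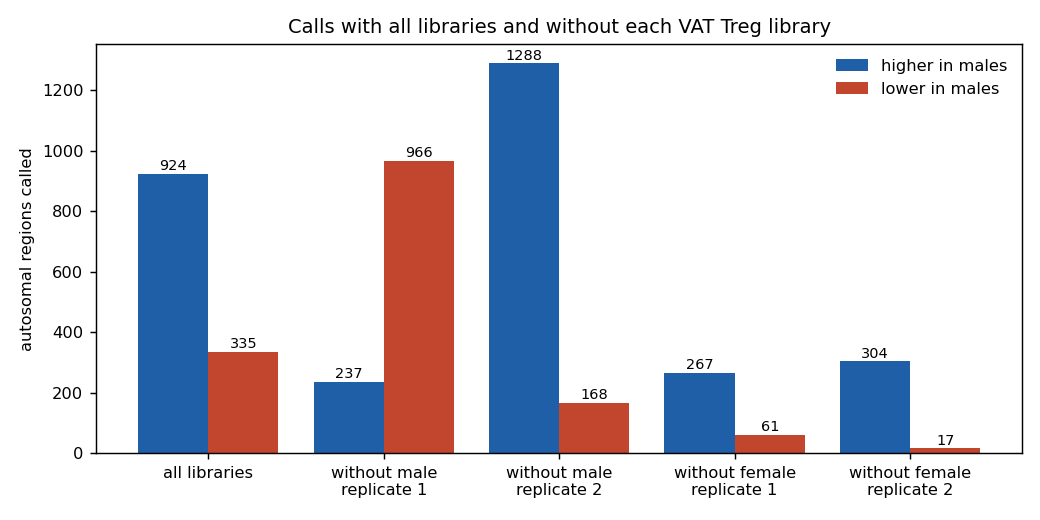
Bars give the number of autosomal regions called higher (blue) or lower (red) in male than in female VAT Tregs, with all libraries and without each of the 4 VAT Treg libraries in turn. With all libraries 924 are higher and 335 lower, and without male replicate 1 the split turns to 237 higher and 966 lower.

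A smaller set held whichever library was left out. In the fit of all libraries and in each of the 4 fits without 1 VAT Treg library, 124 regions were called higher in males (0.277% of those tested) and 8 lower (0.0179%). DESeq2 called 120 of the 124 with all libraries, but under the same requirement of all 5 fits it called only 3 regions higher and 0 lower. Over the 124 the medians were 10.6 CPM in male VAT Tregs, 2.15 CPM in female VAT Tregs, 2.11 CPM in spleen Tregs and 2.42 CPM in CD4 cells. Of the 124, 110 were under 1000 bp, 3 covered a transcription start, and 92 of the 119 with a known distance lay over 10 kb from the nearest start. Male replicate 1 exceeded male replicate 2 at 115 of these too.

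**Figure D2:**
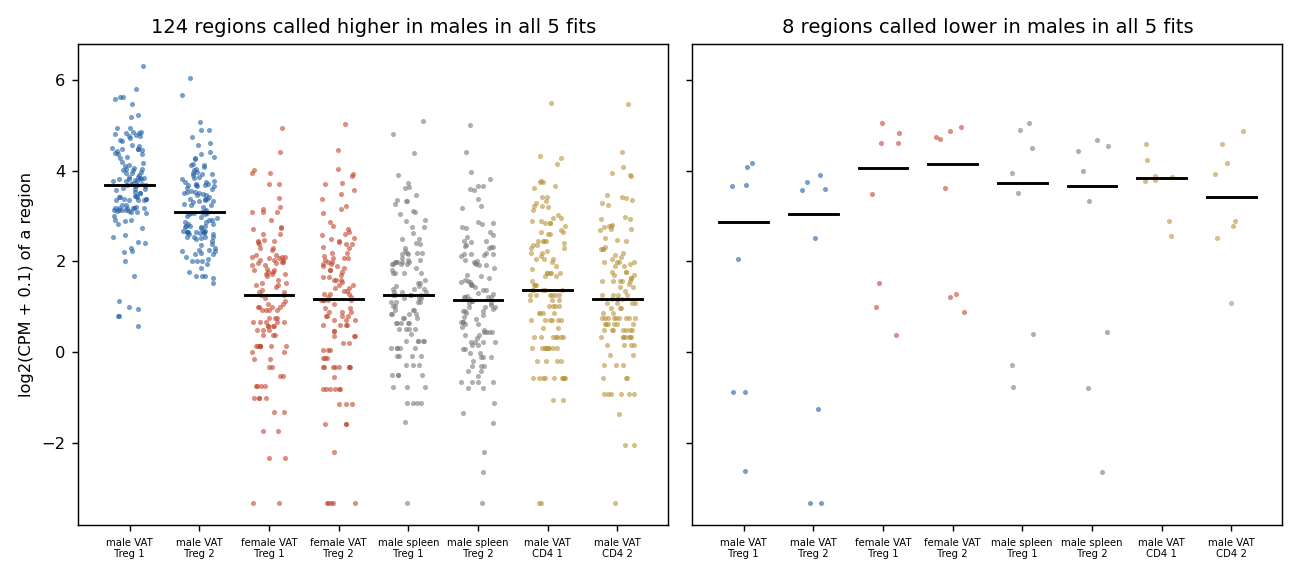
Each point is 1 region and each column 1 library, with log2(CPM + 0.1) on the vertical axis and a bar at the median, for the 124 regions called higher (left) and the 8 called lower (right) in male VAT Tregs in all 5 fits. At the higher regions the female libraries sit at the level of the spleen and CD4 libraries, with group medians of 2.15, 2.11 and 2.42 CPM, below the male median of 10.6 CPM. These regions were chosen for the difference between the sexes.

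With all libraries, genes that mark fat Tregs had the largest share of regions called higher among the gene lists compared. The share was 13.4%, against 2.07% over all regions, and these genes held 21 of the 924 higher calls. Of 157 regions at 25 VAT Treg genes, 21 were higher in males and 0 lower, at 9 genes, with a median log2 fold change of 0.48 against 0.01 over all regions tested. Of these regions 72.6% had a fold change above 0. For this list leaving out male replicate 1, male replicate 2, female replicate 1 or female replicate 2 gave 5, 35, 9 and 10 higher and 0, 1, 0 and 0 lower, in that order, with medians from 0.08 to 0.68, the lowest without male replicate 1. The list and its members were chosen with results of these data known, and its count is a description.

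Klrg1, a cadherin-binding inhibitory receptor, had 4 of 9 regions higher, spread over 21.5 kb, and all 9 had a fold change above 0. Its leading region, chromosome 6 from 122283454 to 122283971, had 16.1 and 7.25 CPM in the male libraries and 0.997 and 2.11 CPM in the female ones. The males stood above spleen Tregs (1.33 and 1.13 CPM) and CD4 cells (2.89 and 1.59 CPM) too, and no library overlapped (log2 fold change 2.95 ± 0.37, adjusted p = 1.53e-11). A region 7.58 kb from the gene at chromosome 6 from 122262440 to 122263015 had 20.8 and 10.02 CPM in males and 3.99 and 3.4 in females (2.08 ± 0.29). Both regions were called in all 5 fits. The call inside the gene (2.07 ± 0.47) was lost without male replicate 1 or female replicate 1 (adjusted p = 0.259 and 0.112). The call near its end (1.34 ± 0.40) was lost without male replicate 1, female replicate 1 or female replicate 2 (adjusted p from 0.284 to 0.552).

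Ctsh encodes cathepsin H, a lysosomal protease, and Plin2 encodes a protein that coats lipid droplets. The leading region of Ctsh, inside the gene at chromosome 9 from 90070916 to 90071323, had 12.5 and 6.08 CPM in males and 0.997 and 0.704 in females (3.44 ± 0.44, adjusted p = 7.15e-11). Plin2 had 2 regions higher, 19.99 kb and 16.4 kb from the gene. The first had 13.2 and 6.82 CPM in males and 1.6 and 1.06 in females (2.91 ± 0.40). The second had 6.53 and 3.52 against 0.499 and 0.235 CPM (3.72 ± 0.61), and in both the female libraries lay at the level of spleen Tregs (1.33 and 1.25 CPM at the first). All 3 regions were called in all 5 fits.

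Il1rl1, the IL-33 receptor, had 3 of 9 regions higher and Il1rl2, the IL-36 receptor next to it, 1 more, within 51.7 kb. The region of Il1rl1 with the smallest p had 12.5 and 2.45 CPM in males and 2.59 and 1.76 in females, so that male replicate 2 lay within the range of the female libraries. The call was lost without male replicate 1 or female replicate 2 (adjusted p = 0.947 and 0.116). A region inside the gene at chromosome 1 from 40444778 to 40444983 separated the groups, with 4.82 and 2.88 CPM in males and 0.997 and 1.06 in females (1.92 ± 0.52), and lost its call without male replicate 1, female replicate 1 or female replicate 2 (adjusted p from 0.191 to 0.308). At the region of Il1rl2, 25.8 kb from that gene, the values were 9.5 and 6.61 against 3.39 and 1.88 CPM (1.61 ± 0.36). Its call was lost without male replicate 1 or female replicate 2, with log2 fold changes of 1.31 and 1.26.

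Further regulators of fat Tregs carried calls that rested on fewer libraries. Pparg, the nuclear receptor that also drives fat cell formation, had 1 of 4 regions higher, with 7.41 and 3.2 CPM in males and 1.3 and 0.939 in females (2.25 ± 0.49), lost without male replicate 1 or female replicate 2 (adjusted p = 0.316 and 0.0808). Il10, an anti-inflammatory cytokine, had 2 of 12, led 19 kb from the gene by 10.3 and 3.41 against 1.99 and 1.41 CPM (2.03 ± 0.41), lost without male replicate 1 or female replicate 2 (adjusted p = 0.46 and 0.0617). Both male libraries were above both female ones at each of these. Prdm1 (Blimp-1), a repressor of effector lymphocytes, had 2 of 16, led 148 kb from the gene by 10.8 and 6.82 against 2.09 and 3.64 CPM (1.65 ± 0.34), lost without male replicate 1 or female replicate 1 (adjusted p = 0.0821 and 0.167). Rora, a nuclear receptor of tissue lymphocytes, had 3 of 21, led within the gene by 16.1 and 7.78 against 3.99 and 5.63 CPM (1.35 ± 0.28), lost without male replicate 1 or female replicate 1 (adjusted p = 0.331 and 0.135). Il9r, the IL-9 receptor, had 9.25 and 5.86 CPM in males and 1.4 and 3.52 in females at its called region (1.66 ± 0.36), lost without male replicate 1 or female replicate 1 (adjusted p = 0.0915 and 0.302).

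Other regulators on the list had no call in either direction. Gata3, a Th2 factor that fat Tregs also use, had 0 of 13 regions called by edgeR, DESeq2 or limma-voom and 0 at an unadjusted p under 0.05, with 6.15 and 4.59 CPM in males and 3.09 and 3.87 in females at the region of smallest p (0.64 ± 0.35). Irf4 and Batf, partners downstream of the T cell receptor, had 0 of 6 and 0 of 4 called by the 3 tools and 0 at an unadjusted p under 0.05. Their leading values were 13.1 and 12.3 against 8.78 and 11.4 CPM for Irf4 (0.34 ± 0.23) and 1.52 and 1.39 against 0.399 and 1.06 CPM for Batf (1.02 ± 0.74). Nfil3, a basic leucine zipper factor, had 0 of 5 called by edgeR and DESeq2 and 1 by limma-voom. Its leading region had 7.03 and 4.59 against 2.69 and 2.23 CPM (1.25 ± 0.41, adjusted p = 0.0649), 1 of the 5 with an unadjusted p under 0.05, and the male libraries were above the female ones there.

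**Figure D3:**
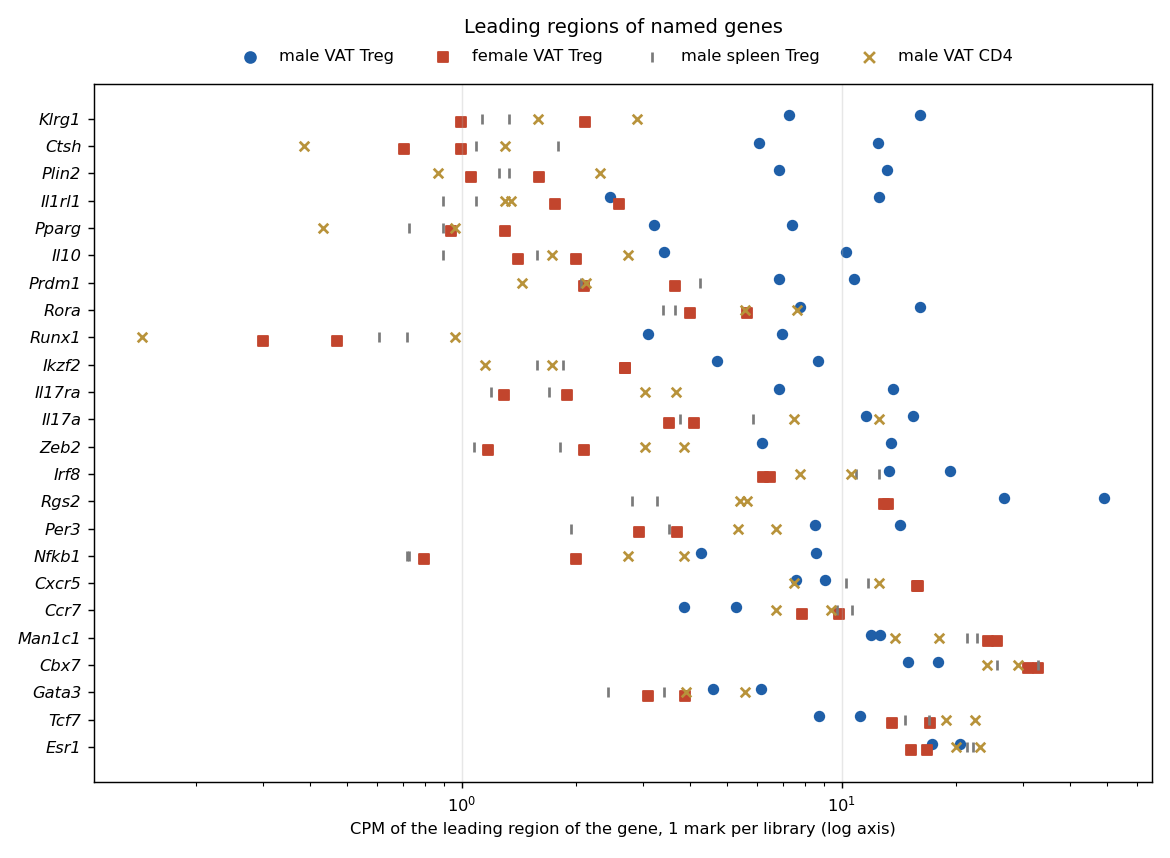
Each row is the leading region of 1 gene and each mark 1 library, with CPM on a log axis, for male VAT Tregs (circles), female VAT Tregs (squares), male spleen Tregs (bars) and male VAT CD4 cells (crosses). At Klrg1 the male circles lie at 16.1 and 7.25 CPM and the female squares at 0.997 and 2.11 CPM, while at Il1rl1 male replicate 2 falls between the female libraries. Gata3, Tcf7 and Esr1 were not called.

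The 12 regions of smallest p called higher in all 5 fits, taking 1 a gene and leaving out predicted genes, included 1 at a gene on the lists, Klrg1. The smallest p was at a region 3.03 kb from Ky, which encodes a muscle protein, on chromosome 9 from 102502127 to 102502722. It had 47.7 and 24.4 CPM in males and 5.49 and 5.16 CPM in females, against 6.67 and 2.93 in spleen Tregs (2.77 ± 0.24, adjusted p = 3.55e-23). A region 25 kb from Mc3r, a melanocortin receptor of energy balance, had 27.2 and 14.4 against 3.19 and 1.76 CPM (3.06 ± 0.29). One 7.16 kb from Lipk, a lipase gene, had 23.4 and 14.2 against 2.59 and 1.41 CPM (3.22 ± 0.32). In each of these the lower male library was over 4 times the higher female library.

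The other regions of these 12 were assigned to Fam69c, Fam86, Myo16, Slco2b1, Vps8, Mrps27, Etaa1, Klrg1 and Palld. Their log2 fold changes were between 1.95 at Mrps27 and 3.17 at the region of Fam86, which lay 115 kb from that gene. Slco2b1 encodes an organic anion transporter, and the region inside it had 37.6 and 15.1 CPM in males and 5.39 and 5.87 in females (2.25 ± 0.25). Palld encodes the actin-binding protein palladin. Its region had 14.4 and 12.8 against 2.29 and 2.23 CPM (2.58 ± 0.33), with male libraries that differed little from each other. At Etaa1, a gene of the DNA replication stress response 70.9 kb away, the 2 male libraries were also close, at 12.9 and 13.3 CPM against 2.79 and 0.587 CPM (2.89 ± 0.36).

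Further regions called in all 5 fits, singled out here after their values were seen, lay at genes of receptors and chromatin or cell cycle control. Tnfrsf11a, which encodes the receptor RANK, had 7.35 and 6.29 CPM in males and 1.2 and 0.821 in females (2.73 ± 0.46). Tet2 encodes an enzyme that oxidises methylated cytosine. A region 77.6 kb from it had 22.2 and 17 against 6.68 and 8.8 CPM (1.35 ± 0.24). E2f7, a repressor of cell cycle genes, had 11.4 and 10.1 against 1.4 and 1.41 CPM at a region 27.9 kb away (2.93 ± 0.38), and the male libraries lay above the female ones in all 3.

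A few of the 124 regions were high in every male library, not only those of VAT Tregs. At 5 of them, with a median width of 79 bp, each of the male libraries, those of VAT Tregs, spleen Tregs and CD4 cells alike, had over 4 times the female VAT mean. They were assigned to Prkag2, Jdp2, 0610040F04Rik, Alg2 and Gm17644, and at all 5 spleen Tregs or CD4 cells had a higher mean than male VAT Tregs. Jdp2, a partner of Jun proteins that represses AP-1 sites, had 66 counts in male VAT Tregs and 0 in female ones, at least 16.2-fold higher in males when the female group is set to 3 counts, and 3.88 and 5.67 CPM in spleen Tregs. Prkag2, which encodes an AMPK subunit that senses cellular energy, had 80 counts against 2, a ratio of 29.5 with an exact 95% interval of 7.9 to 248. Such bounds and intervals reflect counting error alone, because without molecular identifiers reads are not independent molecules.

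Core Treg genes were called about as often as all regions. Of 164 regions at 22 of these genes, 4 were higher and 0 lower (median 0.07), 2.44% higher against 2.07% of all regions. On this list leaving out male replicate 1, male replicate 2, female replicate 1 or female replicate 2 gave 1, 6, 1 and 2 higher and 2, 0, 0 and 0 lower, in that order, with medians from -0.10 to 0.20, the lowest without male replicate 1. Runx1, a partner of Foxp3, had 6.97 and 3.09 CPM in males and 0.299 and 0.469 in females at a region inside the gene (3.72 ± 0.61), a call made in all 5 fits. Nrp1, a semaphorin receptor of thymic Tregs, had 5.89 and 2.99 against 0.399 and 1.17 CPM 187 kb from the gene (2.55 ± 0.54), lost without male replicate 1 or female replicate 1 (adjusted p = 0.169 and 0.175). Entpd1, which encodes the ectonucleotidase CD39, had 9.06 and 2.35 against 2.19 and 1.99 CPM (1.49 ± 0.40), and the call was lost without male replicate 1, female replicate 1 or female replicate 2 (adjusted p from 0.188 to 0.942). Ikzf2, which encodes Helios, had 1 of 19 regions called, at 8.68 and 4.69 against 2.69 and 2.7 CPM (1.33 ± 0.38), lost without male replicate 1, female replicate 1 or female replicate 2 (adjusted p from 0.264 to 0.481). At the leading region of each of these 4 genes both male libraries were above both female ones, as at 918 of all 924 regions called higher.

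Ctla4, an inhibitory receptor of Tregs, had 0 of 13 regions called and Il2ra, the high-affinity IL-2 receptor chain, 0 of 9, by edgeR, DESeq2 and limma-voom, with 1 region each higher at an unadjusted p under 0.05. The region of smallest p had 2.66 and 2.35 CPM in males and 0.898 and 0.469 in females at Ctla4 (1.84 ± 0.65). At Il2ra it had 13 and 8.85 against 6.28 and 8.1 CPM (0.63 ± 0.26).

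Genes of naive and resting T cells had 3 regions higher and 3 lower of 144 (median -0.09), 4.17% called against 2.82% of all regions. For these genes leaving out male replicate 1, male replicate 2, female replicate 1 or female replicate 2 gave 0, 3, 0 and 0 higher and 5, 1, 0 and 0 lower, in that order, with medians from -0.22 to -0.02, the lowest without male replicate 1. Ccr7, the lymph node homing receptor, was lower in males, with 5.26 and 3.84 CPM against 9.87 and 7.86 CPM (-0.94 ± 0.27), a call lost without male replicate 2, female replicate 1 or female replicate 2 (adjusted p from 0.08 to 0.453). Cxcr5, which guides cells into B cell follicles, was lower at 9.06 and 7.57 against 15.9 and 15.8 CPM (-0.92 ± 0.23), lost without male replicate 2, female replicate 1 or female replicate 2 (adjusted p from 0.0573 to 0.127). Both female libraries were above both male ones at these 2 receptors. Tcf7, which encodes the naive cell factor TCF-1, had 0 of 9 regions called (edgeR, DESeq2 or limma-voom) and 2 lower at an unadjusted p under 0.05, with 11.2 and 8.74 against 13.6 and 17.1 CPM at its leading region (-0.61 ± 0.22). Among chemokine receptors 3 of 74 regions were lower, at Ccr7 and Cxcr5, and 0 higher (median -0.17), 4.05% called. For these receptors leaving out male replicate 1, male replicate 2, female replicate 1 or female replicate 2 gave 0, 0, 0 and 0 higher and 3, 0, 0 and 0 lower, in that order, with medians from -0.32 to -0.00, the lowest without male replicate 1.

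Regions called at genes of helper T cell lineages were all higher in males, 3 on each of 3 lists, against 2.07% higher over all regions. Among Th17 genes 3 of 52 regions were higher and 0 lower (5.77% called, median -0.08). For this list leaving out male replicate 1, male replicate 2, female replicate 1 or female replicate 2 gave 3, 4, 2 and 2 higher and 2, 0, 0 and 0 lower, in that order, with medians from -0.23 to 0.05, the lowest without male replicate 1. Il17a, which encodes a cytokine of Th17 cells, had 15.5 and 11.6 CPM in males and 4.09 and 3.52 in females 9.36 kb from the gene (1.83 ± 0.28), and CD4 cells had 12.5 and 7.5 CPM. Il17ra, a chain of the receptor for that cytokine, had 13.6 and 6.82 CPM in males and 1.9 and 1.29 in females (2.68 ± 0.37), and both regions were called in all 5 fits. Ahr, a sensor of aromatic ligands, had 2.91 and 2.67 against 0.199 and 0.469 CPM 63.4 kb away (3.05 ± 0.76), lost without female replicate 1 or female replicate 2 (adjusted p = 0.241 and 0.0574).

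Th1 and cytotoxic genes had 3 of 76 regions higher and 0 lower (3.95% called, median 0.20). Here leaving out male replicate 1, male replicate 2, female replicate 1 or female replicate 2 gave 1, 6, 1 and 0 higher and 0 lower each, in that order, with medians from -0.03 to 0.30, the lowest without male replicate 1. Hopx, a homeodomain protein of effector cells, had 4.94 and 3.2 against 0.898 and 0.117 CPM (2.93 ± 0.63), lost without male replicate 1 or female replicate 2 (adjusted p = 0.0769 and 0.173). Ifng, the gene of interferon gamma, had 6.46 and 7.25 against 2.09 and 2.7 CPM 182 kb from the gene (1.51 ± 0.37), lost without female replicate 1 or female replicate 2 (adjusted p = 0.209 and 0.0554). Il18rap, a chain of the IL-18 receptor, had 10.3 and 5.65 against 4.09 and 2.58 CPM (1.26 ± 0.35), lost without male replicate 1, female replicate 1 or female replicate 2 (adjusted p from 0.0898 to 0.474). Both male libraries were above the female ones at all 3. Th2 genes had 3 of 58 higher and 0 lower, all 3 at Il1rl1 (5.17% called, median 0.17). Among them leaving out male replicate 1, male replicate 2, female replicate 1 or female replicate 2 gave 0, 7, 1 and 0 higher and 1, 0, 0 and 0 lower, in that order, with medians from -0.16 to 0.31, the lowest without male replicate 1.

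Cytokine receptors had 13 of 168 regions higher and 0 lower, at 8 genes (median 0.09), 7.74% called against 2.82% of all regions. For cytokine receptors leaving out male replicate 1, male replicate 2, female replicate 1 or female replicate 2 gave 1, 15, 4 and 3 higher and 0, 1, 0 and 0 lower, in that order, with medians from -0.03 to 0.27, the lowest without male replicate 1. Il10ra, the receptor for IL-10, had 9.06 and 2.67 CPM in males and 0.898 and 0.821 in females inside the gene (2.79 ± 0.50), lost without male replicate 1 (adjusted p = 0.335). Il17ra and Il9r, described above, were the other leading members.

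Among NF-kB factors 6 of 138 regions were higher and 0 lower (median 0.15), 4.35% called against 2.82% of all regions. For NF-kB factors leaving out male replicate 1, male replicate 2, female replicate 1 or female replicate 2 gave 0, 13, 1 and 1 higher and 4, 0, 0 and 0 lower, in that order, with medians from -0.05 to 0.31, the lowest without male replicate 1. Nfkb1, which encodes the subunit p50, had 3 regions higher within 2.16 kb, led by 8.55 and 4.27 CPM in males and 0.798 and 1.99 in females (2.25 ± 0.43), lost without male replicate 1 or female replicate 1 (adjusted p = 0.115 and 0.118). Nfkbiz, a nuclear co-regulator, had 10.3 and 6.72 against 2.89 and 2.23 CPM (1.74 ± 0.36), lost without male replicate 1 or female replicate 2 (adjusted p = 0.0641 and 0.0627). Tnfaip3 (A20), a ubiquitin-editing brake on the pathway, had 17.9 and 11.4 against 8.68 and 8.45 CPM (0.79 ± 0.25), lost without male replicate 1, female replicate 1 or female replicate 2 (adjusted p from 0.347 to 0.585). In male replicate 2 each of these lay above both female libraries.

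AP-1 and BATF factors had 3 of 80 higher and 0 lower (median -0.03), 3.75% called against 2.82% of all regions. For AP-1 and BATF factors leaving out male replicate 1, male replicate 2, female replicate 1 or female replicate 2 gave 1, 5, 2 and 2 higher and 6, 0, 0 and 0 lower, in that order, with medians from -0.40 to 0.21, the lowest without male replicate 1. They were led by Jdp2, described above, and Atf3, a stress-induced factor, at 5.58 and 3.52 against 1.5 and 0.821 CPM (1.96 ± 0.52), lost without male replicate 1, female replicate 1 or female replicate 2 (adjusted p from 0.0772 to 0.331). Factors and receptors induced by the T cell receptor had 12 of 154 regions higher and 0 lower, at 6 genes (median 0.14), 7.79% called. For these leaving out male replicate 1, male replicate 2, female replicate 1 or female replicate 2 gave 1, 15, 3 and 1 higher and 1, 0, 0 and 0 lower, in that order, with medians from -0.03 to 0.22, the lowest without male replicate 1. Zeb2, a repressor in effector cells, had 13.5 and 6.18 CPM in males and 2.09 and 1.17 in females 26.9 kb from the gene (2.59 ± 0.37), a call made in all 5 fits.

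Pdcd1 encodes the inhibitory receptor PD-1. It had 3 regions higher within 42.0 kb. The leading one, 22.1 kb from the gene, had 28 and 17.8 CPM in males and 12.3 and 11.7 in females (0.95 ± 0.22). Its call was lost without male replicate 1, female replicate 1 or female replicate 2, with log2 fold changes of 0.57, 0.98 and 0.91. Here female VAT Tregs also lay above spleen Tregs, at 5.94 and 5.97 CPM. Tox, a factor of chronically stimulated T cells, had 5.07 and 2.56 against 0.997 and 0.352 CPM (2.47 ± 0.60), lost without male replicate 1 or female replicate 2 (adjusted p = 0.264 and 0.268).

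Genes of tissue residency and of the circadian clock had 12 of 124 regions higher and 1 lower, at 7 genes (median 0.28). The share called was 10.5%, against 2.82% of all regions. In this group leaving out male replicate 1, male replicate 2, female replicate 1 or female replicate 2 gave 2, 20, 3 and 5 higher and 5, 1, 1 and 0 lower, in that order, with medians from -0.01 to 0.36, the lowest without male replicate 1. Rgs2, a regulator of G protein signalling, had 49.2 and 26.8 CPM in males, 13 and 13.3 in females and 3.27 and 2.81 in spleen Tregs 71.7 kb from the gene (1.55 ± 0.21), so that female VAT Tregs lay between. Per3, a clock gene, had 14.3 and 8.53 against 3.69 and 2.93 CPM inside the gene (1.79 ± 0.30). Both were called in all 5 fits. Rora and Prdm1 belong to this list as well.

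Integrins and adhesion genes had 8 of 168 regions higher and 0 lower (median 0.12), 4.76% called against 2.82% of all regions. For integrins and adhesion genes leaving out male replicate 1, male replicate 2, female replicate 1 or female replicate 2 gave 1, 11, 3 and 0 higher and 1, 0, 0 and 0 lower, in that order, with medians from 0.05 to 0.19, the lowest without female replicate 2. Itga2 and Itga1 encode collagen-binding integrin chains. Itga2 had 3.8 and 4.59 CPM in males and 1.1 and 0.235 in females (2.58 ± 0.60), lost without female replicate 2 (adjusted p = 0.253). Itga1 had 4.69 and 4.27 against 1.7 and 0.821 CPM (1.80 ± 0.46), lost without male replicate 1 or female replicate 2 (adjusted p = 0.0696 and 0.358). Cd44, a receptor for hyaluronan, belonged with Pdhx to 4 higher regions within 95.5 kb. The leading region of Cd44 lay 40.5 kb from the gene, over another transcription start. It had 3.74 and 2.56 against 0.698 and 0.117 CPM (2.87 ± 0.70). Its call was lost without male replicate 1 or female replicate 2, with log2 fold changes of 2.56 and 2.17.

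Genes of tissue repair and suppression had 4 of 108 regions higher and 0 lower (median 0.17), 3.70% called against 2.82% of all regions. For repair genes leaving out male replicate 1, male replicate 2, female replicate 1 or female replicate 2 gave 0, 9, 3 and 1 higher and 2, 0, 0 and 0 lower, in that order, with medians from 0.04 to 0.24, the lowest without male replicate 1. Furin, a protease that activates secreted proteins, had 19.3 and 7.14 CPM in males and 3.59 and 3.87 in females (1.86 ± 0.29), lost without male replicate 1 (adjusted p = 0.2). Il10 and Entpd1 made up the rest.

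Lipid and cholesterol metabolism genes had 4 of 167 regions higher and 1 lower (median 0.01). They were called about as often as all regions, 2.99% against 2.82%. For lipid genes leaving out male replicate 1, male replicate 2, female replicate 1 or female replicate 2 gave 2, 6, 2 and 2 higher and 5, 2, 0 and 0 lower, in that order, with medians from -0.03 to 0.05, the lowest without male replicate 1. The 2 regions of Plin2 were among the higher ones. Abca1, a cholesterol exporter, had 2.28 and 1.71 against 0.199 and 0.235 CPM (3.15 ± 0.87), lost without male replicate 1, female replicate 1 or female replicate 2 (adjusted p from 0.123 to 0.271). The groups did not overlap there. Hilpda, which encodes a lipid droplet protein and is on no list, had 3 regions higher within 1.63 kb, chosen after their values were known. The leading one had 18.1 and 6.29 CPM in males and 2.59 and 2.93 in females (2.18 ± 0.32), lost without male replicate 1 (adjusted p = 0.145).

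Steroid hormone genes, the receptors, enzymes and cofactors of sex and adrenal steroids, had 5 of 71 regions higher and 0 lower, at 5 genes (median 0.00). The share called was 7.04%, against 2.82% of all regions. For steroid hormone genes leaving out male replicate 1, male replicate 2, female replicate 1 or female replicate 2 gave 0, 3, 1 and 2 higher and 2, 0, 0 and 0 lower, in that order, with medians from -0.03 to 0.08, the lowest without male replicate 1. DESeq2 called 0 with all libraries. Esr1, which encodes estrogen receptor alpha, had 0 of 3 regions called (edgeR, DESeq2 or limma-voom) and 0 at an unadjusted p under 0.05, with 17.3 and 20.5 CPM in males and 15.3 and 16.8 in females at the leading region (0.23 ± 0.21). Nr3c1, the glucocorticoid receptor, had 1 of 7 regions higher, at 3.23 and 2.13 against 0.598 and 0.235 CPM (2.63 ± 0.71), lost without male replicate 1, female replicate 1 or female replicate 2 (adjusted p from 0.0982 to 0.34), and the groups did not overlap there. Ncor1, a co-repressor of nuclear receptors, had 27.4 and 8.53 against 4.69 and 5.28 CPM (1.88 ± 0.27), lost without male replicate 1 (adjusted p = 0.252). Zbtb16, which encodes the factor PLZF, had 2.85 and 2.56 against 0.199 and 0.821 CPM (2.43 ± 0.70), lost without any 1 of the 4 libraries (adjusted p from 0.0579 to 0.501).

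Interferon response genes had 2 of 78 regions higher and 2 lower (median 0.03), 5.13% called against 2.82% of all regions. For interferon genes leaving out male replicate 1, male replicate 2, female replicate 1 or female replicate 2 gave 1, 3, 1 and 1 higher and 3, 0, 0 and 0 lower, in that order, with medians from -0.12 to 0.08, the lowest without male replicate 1. Irf8, an interferon regulatory factor, had 19.3 and 13.3 CPM in males and 6.48 and 6.22 in females 19.5 kb from the gene (1.37 ± 0.24), called in all 5 fits, with 10.9 and 12.5 CPM in spleen Tregs. Isg15, an interferon-induced ubiquitin-like protein, shared its lower region with Agrn, AW011738 and 2310042D19Rik, so that region does not stand for Isg15 alone. The region covered a transcription start and had 15.8 and 10.9 CPM in males against 20.9 and 23.6 in females (-0.72 ± 0.21). Its call was lost without male replicate 2, female replicate 1 or female replicate 2, with log2 fold changes of -0.49, -0.80 and -0.63. Ifnar1, a chain of the type I interferon receptor, had 20.7 and 13.9 against 8.88 and 11.5 CPM (0.78 ± 0.23), lost without male replicate 1, female replicate 1 or female replicate 2 (adjusted p from 0.105 to 0.532). At all 3 the groups did not overlap.

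**Figure D4:**
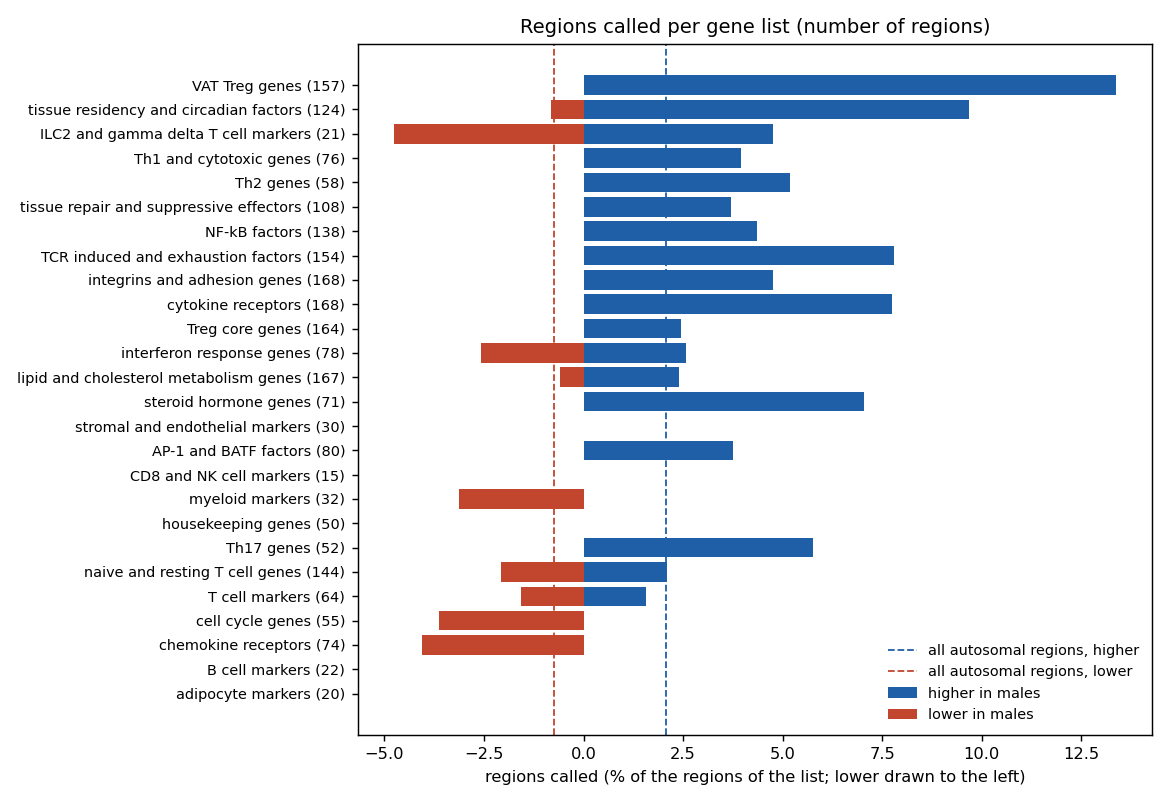
Bars give the share of a list's regions called higher (right) or lower (left, drawn as negative) in male VAT Tregs, ordered by the list's median log2 fold change, with the number of regions in parentheses and dashed lines at the shares over all autosomal regions (2.07% and 0.75%). VAT Treg genes reach 13.4%, 21 of 157 regions, and housekeeping genes 0 of 50.

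Housekeeping and cell cycle genes served as controls. Housekeeping genes had 0 of 50 regions called by edgeR, DESeq2 and limma-voom, with 3 above and 5 below at an unadjusted p under 0.05 and a median of -0.06, but leaving out male replicate 1, male replicate 2, female replicate 1 or female replicate 2 gave 0, 1, 0 and 0 higher and 5, 0, 0 and 0 lower, in that order, with medians from -0.27 to 0.08, the lowest without male replicate 1. Over all regions too, lower calls outnumbered higher ones without male replicate 1. Cell cycle genes had 0 of 55 higher and 2 lower (median -0.15), 3.64% called against 2.82% of all regions. For cell cycle genes leaving out male replicate 1, male replicate 2, female replicate 1 or female replicate 2 gave 0, 0, 0 and 0 higher and 6, 1, 0 and 1 lower, in that order, with medians from -0.20 to -0.07, the lowest without female replicate 1. Birc5, an inhibitor of apoptosis in dividing cells, had 12.2 and 9.92 CPM in males and 22.1 and 18.5 in females (-0.87 ± 0.21), lost without male replicate 2 or female replicate 1 (adjusted p = 0.0504 and 0.254). Mcm2, a subunit of the replication helicase, had 7.67 and 7.14 against 13.7 and 14.9 CPM (-0.94 ± 0.24), lost without female replicate 1 or female replicate 2 (adjusted p = 0.0747 and 0.156). Scaling on regions under 1000 bp moved the median of all regions from 0.01 to -0.11, and with it the medians of cytokine receptors, Treg core genes, integrins, T cell receptor induced factors, interferon genes, steroid hormone genes and lipid genes went from above 0 to below 0, the lowest at -0.14. Loess offsets also put that of steroid hormone genes at -0.01. Scaling on regions under 1000 bp left 15 regions of VAT Treg genes higher and 0 lower, and loess offsets left 19 and 0. On the 12 lists of cell programmes with 0 regions lower by edgeR, DESeq2 also called 0 lower, limma-voom called 1, on the AP-1 list, and 2 to 8 regions a list were lower at an unadjusted p under 0.05.

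Markers of other cells the sort could hold were compared as well, on lists of 15 to 32 regions each. With 2.82% of all regions called, few calls would fall on lists of this size, so low counts here do not measure the purity of the sort. Over the 6 lists of B cells, myeloid cells, CD8 and NK cells, ILC2 and gamma delta T cells, adipocytes and stromal and endothelial cells, edgeR called 1 region higher and 2 lower, and 1 higher and 4 lower without male replicate 1. The summed level of B cell markers was 424 and 361 CPM in males and 449 and 451 in females. Myeloid markers had 315 and 254 against 318 and 328 CPM, and adipocyte markers 144 and 129 against 163 and 172 CPM. Of the regions of T cell markers 3.1% were called, against 2.82% of all regions. T cell markers had 1025 and 750 against 920 and 955 CPM, 1 of 64 regions higher and 1 lower, and for them leaving out male replicate 1, male replicate 2, female replicate 1 or female replicate 2 gave 0, 2, 0 and 0 higher and 3, 0, 0 and 0 lower, in that order, with medians from -0.35 to 0.09, the lowest without male replicate 1.

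CD8 and NK markers summed to 153 and 144 CPM in males and 146 and 160 in females, stromal and endothelial markers to 240.5 and 247 against 244 and 250.4, and ILC2 and gamma delta T cell markers to 215 and 191 against 180 and 179. Of the defining genes, Cd8a, Ms4a1, Csf1r, Adgre1, Lep and Pdgfrb had no region tested. Cd68, a lysosomal protein of macrophages, had 13 and 10.4 CPM in males and 22 and 21.1 in females (-0.87 ± 0.21), lost without male replicate 2, female replicate 1 or female replicate 2 (adjusted p from 0.0509 to 0.127). That region, 3271 bp wide and over a transcription start, was also assigned to Eif4a1, Mpdu1, Senp3, Tnfsf12 and Tnfsf13 among others, so it does not stand for Cd68 alone. It was the 1 region called of 32 at myeloid markers. Calca, a neuropeptide gene that some ILC2 express, had 15.3 and 8.32 against 3.29 and 2.93 CPM 8.88 kb from the gene (1.94 ± 0.32), called in all 5 fits. The T cell gene Cd2 was lower, at 25.7 and 22.8 against 35.9 and 42.5 CPM (-0.69 ± 0.19), lost without male replicate 2, female replicate 1 or female replicate 2 (adjusted p from 0.0589 to 0.415), and Cd28 higher, at 7.92 and 3.84 against 1.99 and 2.46 CPM (1.43 ± 0.39), lost without male replicate 1, female replicate 1 or female replicate 2 (adjusted p from 0.146 to 0.502). What part other cells play in the differences between the sexes was not tested.

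Higher and lower calls differed in their position. Among regions under 1000 bp, the share higher was 5.30% at 10 to 50 kb from the nearest RefSeq transcription start (327 of 6173) and 3.52% where the region covered a start (24 of 682). Without male replicate 1 these calls fell to 81 and 4. Among regions of 1000 bp or more that cover a start, 216 of 8280 were lower (2.61%) and 32 higher (0.386%). Beyond 50 kb the longer regions had 21 of 9380 lower (0.224%). The lower calls over starts changed with the male libraries: 714 without male replicate 1 and 36 without male replicate 2. Regions covering a start took 38.0% of the autosomal counts in male replicate 1, 34.4% in male replicate 2, and 35.6% and 36.3% in the female libraries, and their part in these calls was not tested. Start positions on chromosome 18 were not used here.

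**Figure D5:**
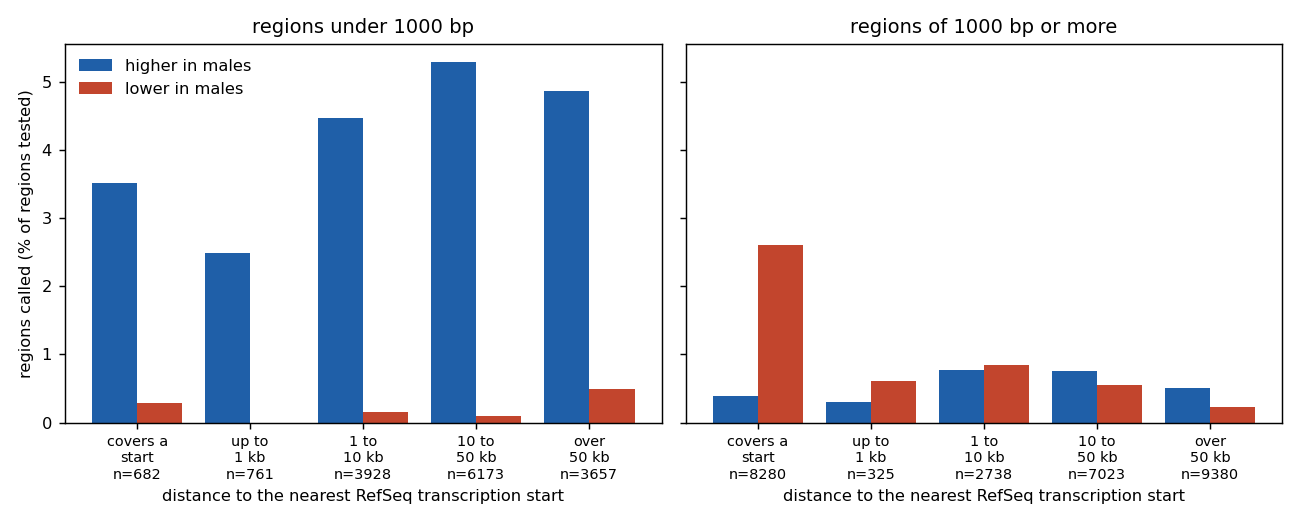
Bars give the share of tested autosomal regions called higher (blue) or lower (red) in male VAT Tregs by distance to the nearest RefSeq start, for regions under 1000 bp (left) and of 1000 bp or more (right). The share higher is 5.30% for short regions 10 to 50 kb away, and the share lower is 2.61% for long regions that cover a start.

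Lower calls were also unevenly spread over chromosomes. Chromosome 11 had 83 of 2141 regions lower (3.88%) with a median log2 fold change of -0.22, and chromosome 19 had 21 of 848 lower (2.48%) with a median of -0.16. Chromosome 13 had 0 of 2151 lower and 55 higher. Regions that cover a start made up 31.9% of those tested on chromosome 11, 36.2% on chromosome 19 and 20.1% on chromosome 13.

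Promoters within the lower regions held somewhat more CG dinucleotides than those within regions not called. The promoter results here and below use the calls made with all libraries and were not repeated without single libraries. RefSeq windows of 300 bases, from 250 before to 50 after a start, lay wholly inside a tested region 11751 times. Those inside a region lower in males (332) had a median GC content of 63.0% and 24 CG dinucleotides, those inside a higher region (51) 55.0% and 12, and those inside a region not called 61.3% and 21. By GC content, the share of regions lower rose from 0.753% with promoters up to 50% GC to 3.49% with promoters over 60% and up to 70%, and was 2.87% over 70%, a region counting in each bin in which it has a promoter. Over the same bins the median log2 fold change was 0.01, -0.11 and -0.09.

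Examples of these promoters are shown because they belong to regions called in all 5 fits, 2 lower and 2 higher in males, and differ in CG content. They are from RefSeq on GRCm38.p6, each 5′ to 3′ on the strand of the gene, with CG dinucleotides in capitals. Man1c1 encodes a mannosidase of the Golgi, Cbx7 a reader of the repressive Polycomb mark, Tmtc2 a mannosyltransferase and Tiam1 an activator of the GTPase Rac.
Man1c1, lower, chr4:134704241-134704540, minus strand: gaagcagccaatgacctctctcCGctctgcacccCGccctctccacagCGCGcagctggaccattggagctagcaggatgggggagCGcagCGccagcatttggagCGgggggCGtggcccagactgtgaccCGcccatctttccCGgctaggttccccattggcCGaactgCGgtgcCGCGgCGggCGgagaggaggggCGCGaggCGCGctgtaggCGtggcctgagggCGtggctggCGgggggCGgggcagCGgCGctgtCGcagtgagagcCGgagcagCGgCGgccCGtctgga
Cbx7, lower, chr15:79932597-79932896, minus strand: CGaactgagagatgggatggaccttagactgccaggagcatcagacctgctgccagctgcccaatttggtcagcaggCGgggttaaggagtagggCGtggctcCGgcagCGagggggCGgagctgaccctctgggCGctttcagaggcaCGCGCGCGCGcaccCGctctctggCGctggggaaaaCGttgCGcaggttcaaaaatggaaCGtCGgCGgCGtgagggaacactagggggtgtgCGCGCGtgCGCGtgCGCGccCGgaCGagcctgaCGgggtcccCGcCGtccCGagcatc
Tmtc2, higher, chr10:105574430-105574729, minus strand: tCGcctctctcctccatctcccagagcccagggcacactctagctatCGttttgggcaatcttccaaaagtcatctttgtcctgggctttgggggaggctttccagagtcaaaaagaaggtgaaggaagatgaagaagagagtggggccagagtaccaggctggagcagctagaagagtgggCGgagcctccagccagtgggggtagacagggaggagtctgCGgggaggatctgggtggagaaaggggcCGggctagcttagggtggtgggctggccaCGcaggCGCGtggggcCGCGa
Tiam1, higher, chr16:89974650-89974949, minus strand: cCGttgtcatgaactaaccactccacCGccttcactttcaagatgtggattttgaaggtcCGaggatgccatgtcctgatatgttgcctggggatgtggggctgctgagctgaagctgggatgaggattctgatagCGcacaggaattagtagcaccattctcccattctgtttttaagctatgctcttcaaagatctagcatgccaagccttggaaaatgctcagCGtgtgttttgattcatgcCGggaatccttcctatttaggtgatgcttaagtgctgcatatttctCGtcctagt
The window of Man1c1 held 31 CG dinucleotides (72.3% GC) and that of Cbx7 33 (67.3%), against 10 (60.3%) for Tmtc2 and 7 (47%) for Tiam1. The contrast was not general. The promoter of C1qtnf6, also lower in all 5 fits, held 10, and that of Gm15663, in the same higher region as Tmtc2, held 20 (65.3% GC).

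The region over the start of Man1c1, chromosome 4 from 134702523 to 134706168, had 12.6 and 11.9 CPM in males and 24.2 and 25.7 in females (-1.02 ± 0.21, adjusted p = 0.000196), and spleen Tregs had 22.7 and 21.4 CPM. The region of Cbx7, chromosome 15 from 79928355 to 79936884, had 17.9 and 14.9 CPM in males and 32.9 and 31 in females (-0.95 ± 0.20). At both, female VAT Tregs lay near spleen Tregs and the males were lowest. The region over the start of Tiam1, chromosome 16 from 89971412 to 89975107, was higher, with 36.2 and 29.6 CPM in males and 16.1 and 15 in females (1.09 ± 0.20). That over Tmtc2 and the divergent gene Gm15663, chromosome 10 from 105571741 to 105577300, had 79.3 and 65.8 against 30.4 and 32.5 CPM (1.21 ± 0.18).

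Letter matches to known motifs, searched on both strands, differed between these promoters for some motifs and little for others. The 51 windows inside higher regions lay in 36 regions and the 332 inside lower ones in 213, so few windows make up the shares in higher regions. The AP-1 letters TGANTCA stood in 15.7% of the 51 promoters inside higher regions, 3.01% of the 332 inside lower ones, 4.55% of all inside tested regions and 7.84% of all promoters of the table. The window of Tiam1 holds them. The CRE letters TGACGTCA stood in 6.02% of promoters inside lower regions, in 3.33% of those inside tested regions, in 0% of those inside higher regions, and in 1.83% of all promoters of the table. The E-box letters CACGTG stood in 14.5% of promoters inside lower regions, 9.80% inside higher ones, 9.90% inside tested regions and 7.14% of all. Each of these 3 letter strings reads the same on both strands, and none contains another. These shares are descriptions of the letters and were not tested.

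The other lower regions called in all 5 fits were at Morn3, Sos2, C1qtnf6 and the T cell receptor alpha locus. The region next to Morn3, a gene of a membrane-associated repeat protein, had 12.7 and 11.7 CPM in males and 24.2 and 26.6 in females (-1.05 ± 0.21). Sos2, an activator of Ras, had 4.05 and 5.65 against 11.2 and 12.2 CPM inside the gene (-1.29 ± 0.26), and C1qtnf6, a secreted relative of complement C1q, 16.9 and 13.3 against 28.5 and 29.2 CPM (-0.92 ± 0.20). At these 3 the groups did not overlap.

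The T cell receptor alpha locus on chromosome 14 held the longest run of lower calls, 8 of 10 tested regions within 94.6 kb, 3 of them called in all 5 fits. Its V segments are joined to J segments, with loss of the DNA between them, when a T cell forms its receptor. The segments resemble each other, so reads may be assigned to a related one. Trav17, a V segment, had 0.443 and 0.32 CPM in males and 2.79 and 2.35 in females (-2.67 ± 0.57), while spleen Tregs had 1.21 and 0.478 and male VAT CD4 cells 13.5 and 6.78 CPM. Female VAT Tregs lay between spleen Tregs and CD4 cells. At Trav13-4-dv7 there was 1 count in males and 27 in females, 36.6 times as high in females after scaling, with an exact 95% interval of 6.04 to 1499.7. Trdc, the constant segment of the delta chain, had 0.0634 and 0 against 1.5 and 0.235 CPM at its called region, 1 count against 17, a ratio of 23.1 (exact 95% interval 3.61 to 964), lost without male replicate 1, male replicate 2 or female replicate 1 (adjusted p from 0.102 to 0.805).

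Some called regions lay in runs. Linking called regions of 1 direction less than 50 kb apart gave 24 loci with at least 3 higher regions (79 regions) and 9 with at least 3 lower ones (33 regions), out of 924 and 335. Among the higher loci were those of Klrg1, Plin2 with Dennd4c, Il1rl1 with Il1rl2, Cd44 with Pdhx, and Galc with Gpr65, with 4 regions each, and of Pdcd1, Rgs2, Nfkb1, Hilpda, Furin and Tiam1, with 3 each. Gpr65 encodes a proton-sensing receptor. The leading region of this run, assigned to both genes and lying within Galc, had 18.9 and 16 CPM in males and 8.08 and 9.04 in females (1.04 ± 0.23), lost without female replicate 1 (adjusted p = 0.116).

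Among the lower loci, the heat shock genes Hspa1a and Hspa1b lay in a lower run of 3 regions on chromosome 17, and as near-identical copies they may share reads. The region over Hspa1b had 12.4 and 7.46 against 16.1 and 20.2 CPM (-0.84 ± 0.22), lost without male replicate 2 or female replicate 2 (adjusted p = 0.248 and 0.361). Male replicate 2 was the lowest of the 4 libraries there.

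Counts summed over all autosomal regions of a gene gave 1 test per gene. Of 18589 genes, 551 were higher in males (2.96%) and 375 lower (2.02%). Leaving out male replicate 1 gave 1312 higher and 2263 lower, leaving out male replicate 2 gave 911 and 275, female replicate 1 gave 27 and 2, and female replicate 2 gave 42 and 3. In all 5 fits 21 genes were higher, among them Klrg1, Ctsh, Ky, Lipk, Mc3r, Slco2b1, Tmtc2, Kcna4 and Tnfrsf11a, and 1 was lower, Trav17.

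Among the genes of smallest p in these sums, some regions are shared between neighbours, so that a gene does not always stand for a signal of its own. Mc3r summed to 24.8 and 15.8 CPM in males and 2.96 and 3.27 in females over 4 regions (2.72 ± 0.25, adjusted p = 6.09e-06), Lipk to 17.5 and 12.3 against 2.24 and 1.31 CPM (3.06 ± 0.31), and Tmtc2 to 65.4 and 61 against 27.8 and 27.6 CPM (1.19 ± 0.12). Kcna4, a potassium channel gene, summed to 17.8 and 16.4 against 4.69 and 4.33 CPM over 8 regions (1.93 ± 0.20). The other higher genes of smallest p were Fam69c, Gm15663, D030046N08Rik and 9430020K01Rik. Of the 8 lower genes of smallest p, Trav17 summed to 1.21 and 1.02 CPM in males and 6.64 and 6.86 in females (-2.56 ± 0.38). The other 7 were Gm6444, Morn3, Man1c1, B230359F08Rik, Tmem120b, Fbxo47 and C1qtnf6, with log2 fold changes from -2.63 at B230359F08Rik to -0.81 at C1qtnf6. Each of these 7 lost its call without 1 or both of the female libraries (adjusted p from 0.0509 to 0.154).

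Regions assigned to microRNA genes, which encode short RNAs that silence messenger RNAs, had 6 of 498 higher and 4 lower, where all regions had 2.07% higher and 0.75% lower. None of these 10 was called in all 5 fits. Mir155, whose product is known for its part in Treg fitness, was singled out after its values were seen. A region of 81 bp lay 3.58 kb from its hairpin, on chromosome 16 from 84710479 to 84710560. It had 1.58 and 1.71 CPM in males and 0.0997 and 0.235 in females, 41 counts against 3, a ratio of 10.1 with an exact 95% interval of 3.21 to 50.9. Spleen Tregs had 0.849 and 0.478 CPM and CD4 cells 0.963 and 0.577. The edgeR call (adjusted p = 0.0273) was lost without any 1 of the 4 libraries (adjusted p from 0.0769 to 0.395). The mature arms from RefSeq on GRCm38.p6 are shown so that the RNA this locus encodes can be identified, with the seed, bases 2 to 8, in capitals.
mmu-miR-155-5p: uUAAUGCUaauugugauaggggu
mmu-miR-155-3p: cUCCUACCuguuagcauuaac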

How the data were processed

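The authors deposited raw read counts per region for 8 ATAC-seq libraries. Per the submitters' processing notes the tools include Subread 1.6.2, HOMER 4.9, featureCounts and limma, and the build is mm10 (GRCm38). How regions were called is not given in the sources used here. Deposited log2 values per library were not used. The table's 62205 entries, in which a region repeats for each assigned gene, were reduced to 46624 distinct regions. Regions outside chromosomes 1 to 19, X and Y, which held 24.7% to 35.8% of counts, were left out. Of 19699 gene identifiers 18545 were found in the RefSeq table. Coordinates are as deposited.

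The 8 libraries were fitted together with edgeR 4.0.16 (quasi-likelihood F test, R 4.3.3, a coefficient per group, TMM factors, filterByExpr, 4 residual degrees of freedom). Benjamini-Hochberg adjustment ran over all regions kept, X and Y included, and the threshold was 0.05. Standard errors are log2 fold changes over the root of F. On simulated counts of 45709 regions with 100 changed regions per size, the test recovered 52% at 2-fold and 92% at 4-fold. Alternatives were DESeq2 1.42.0, limma-voom (limma 3.58.1), other scalings and filters, fewer libraries and stricter thresholds.

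Members, 26 gene lists and the rules were chosen with earlier results of these data known. Named were the up to 12 strongest regions per direction called in all 5 fits (1 a gene, no predicted genes), up to 3 called genes a list, 16 fixed genes, and 8 genes per direction from the summed counts. Some genes that the rule names are not reported here. List counts without single libraries were added after seeing the data. Equal replicate numbers were not treated as pairs.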

Additional observations from a re-analysis of the deposited data

How the results depend on the processing

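Regions higher and lower in males, 924 and 335 with all libraries, were 346 and 47 with the DESeq2 Wald test, 455 and 347 with TMM on regions under 1000 bp (56.7% higher, against 73.4%), 747 and 164 with library size alone, 742 and 214 with loess offsets, 326 and 8 against a fold change of 1.5, and 522 and 83 at an adjusted p under 0.01. Leaving out 1 library gave 237 to 1288 higher and 17 to 966 lower. With limma-voom, median-of-ratios factors, other filters, the 4 VAT Treg libraries alone or autosomal regions alone, both counts stayed within 1.5 times. A replicate block gave 852 and 75. Deviations of same-numbered libraries from their group mean had r = -0.08 across 44691 regions. This cannot tell whether libraries of the same number were handled as pairs. Calls in all 5 fits, 124 and 8, were 3 and 0 with DESeq2 and 89 and 0 with library size alone. Genes from summed counts, 551 higher and 375 lower, were 465 and 188 with DESeq2, 144 and 73 with library size alone, 547 and 85 over regions under 1000 bp and 259 and 154 over longer ones. Without 1 library they were 27 to 1312 and 2 to 2263. Of 1168 values of the 78 named regions under these alternatives, 1006 kept their side of the threshold, 157 lost and 5 gained a call, and 0 changed sign. The causes were not tested. With 2 libraries a group, a lone library left in a group was assumed to vary like the others, and at 1 count per 0.0634 to 0.117 CPM short regions in females rest on few counts.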
